A study of Rattus norvegicus with 10 samples.

Results

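To examine the arcuate feeding peptides under both diets, the precursor genes Npy, Agrp, Pomc, Gal and Galp were followed through the hypothalamic arrays of weaning-stage rats. Members were all probe sets that the array annotation assigned to 1 of these 5 genes alone. Of the 5 genes, 4 had a named probe set, with 1 probe set each, among 14217 genes named alone and 31042 probe sets tested. They were 1387154_at for Npy, 1387088_at for Gal, 1384612_at for Pomc and 1369599_at for Galp. Agrp was not named by any probe set of the annotation used here, so no value is given for it. All 10 rats were male Wistar, fed powder from 3 weeks of age for acclimatization and 4 weeks old at dissection. The C group (5 rats, Chow 1 to 5) then received solid chow for 8 days and the P group (5 rats, Powder 1 to 5) stayed on powdered feed for the same 8 days. Both groups lived on soft paper and drank from a sponge, which left the feed as the main thing to bite. The whole hypothalamus was taken, so every value is an average over its nuclei, and fewer cells of a type cannot be told apart from less RNA per cell.

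Neurons of the arcuate nucleus, at the base of the hypothalamus, read hormones of energy balance such as leptin and ghrelin. One population releases neuropeptide Y (from Npy) and agouti-related peptide (from Agrp), which promote feeding, and another cleaves proopiomelanocortin (from Pomc) into alpha-melanocyte-stimulating hormone, which restrains feeding through melanocortin receptors that agouti-related peptide blocks. Galanin, from Gal, is made in several hypothalamic nuclei and promotes feeding, and galanin-like peptide, from Galp, is made in a small arcuate population that responds to leptin.

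The promoter windows of Npy and Gal are shown because these were the members whose signal varied between rats. Each window runs from 250 bases before to 50 after the RefSeq start in build GRCr8, 5′ to 3′ on the strand of the gene, at chr4:80211861-80212160 on the plus strand for Npy and chr1:210084523-210084822 on the minus strand for Gal. Capitals mark matches to TATAAA (known as the TATA box), TGACG (part of a cyclic AMP response element), CCAAT (known as a box under that name), GGGCGG (known as the GC box) and CACGTG (E-box). Each was searched on both strands, and none of these motifs contains another.
Npy: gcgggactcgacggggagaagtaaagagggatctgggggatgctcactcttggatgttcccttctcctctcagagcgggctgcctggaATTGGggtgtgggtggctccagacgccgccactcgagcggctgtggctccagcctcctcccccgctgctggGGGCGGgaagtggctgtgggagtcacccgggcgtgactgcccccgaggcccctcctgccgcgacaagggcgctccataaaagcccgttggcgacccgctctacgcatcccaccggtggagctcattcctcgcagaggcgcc
Gal: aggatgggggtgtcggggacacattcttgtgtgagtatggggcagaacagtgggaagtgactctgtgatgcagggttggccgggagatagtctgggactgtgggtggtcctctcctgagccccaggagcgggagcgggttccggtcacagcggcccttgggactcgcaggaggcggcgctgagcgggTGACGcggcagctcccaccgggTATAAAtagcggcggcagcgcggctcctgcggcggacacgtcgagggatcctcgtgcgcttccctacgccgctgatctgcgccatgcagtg
The Npy window held a CCAAT box on the reverse strand, whose first base lay 162 bases before the start, and a GC box 91 bases before it. The Gal window held a TGACG match 63 bases and a TATA box 41 bases before the start, so the windows shared 0 of the 5 motifs. Among 33469 promoter windows of the same length, TATAAA was found in 14.2%, TGACG in 21.2%, CCAAT in 37.5%, GGGCGG in 33.1% and CACGTG in 6.42%. For Agrp, Pomc and Galp the start used lies inside the span of the gene and not at its edge, and other starts were not searched. The windows of Agrp and Galp held 0 matches to any of the 5, and that of Pomc held 1 TATA box and 1 GC box. These matches describe the letters of the windows, and the arrays do not measure use of any of them.

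Npy and Gal varied between the rats, whereas Pomc and Galp were flat. A probe set was called varying where the standard deviation (SD) over the 10 rats was above 0.1 on the log2 scale and flat where it was below 0.001. The SD was 0.14 for Npy and 0.11 for Gal, larger than in 96.9% and 96.0% of the probe sets tested. Only 4.48% of probe sets varied and 92.6% were flat, and the summarization that the authors used draws a probe set whose probes share no signal between arrays toward a constant. Flat values therefore carry no measure of how much a gene differed between these rats, and levels of different probe sets are not compared here.

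**Figure D1:**
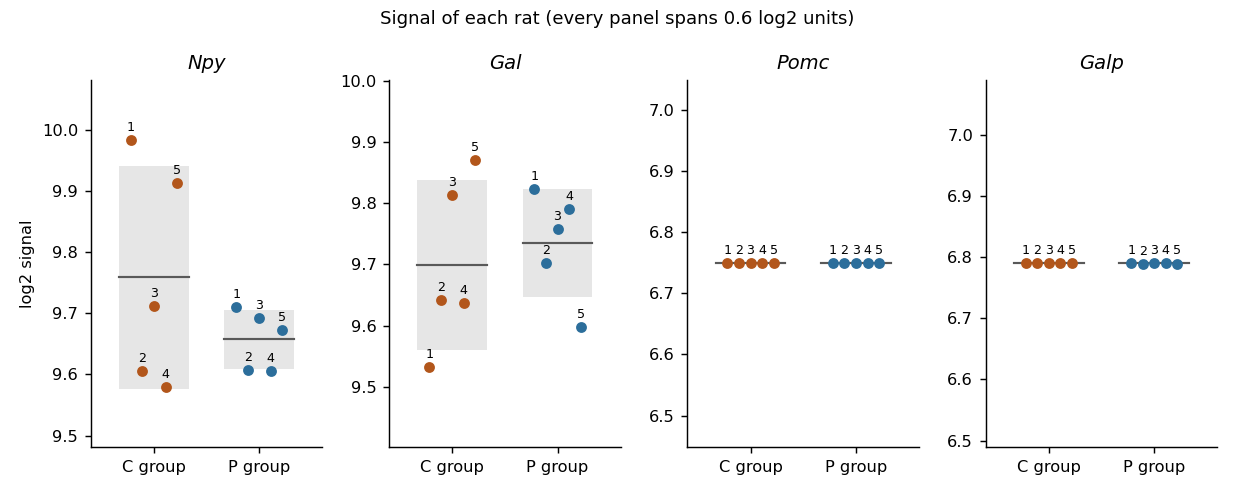
Log2 signal of each rat for Npy, Gal, Pomc and Galp in the C and P groups; numbers give the rat, lines the group mean and grey bands 1 SD on either side (5 rats per group), with the same height of axis in each panel. Npy reached 9.98 and 9.91 in Chow 1 and Chow 5 and stayed between 9.58 and 9.71 in the remaining rats, while Pomc and Galp show no visible spread.

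Npy read 9.98 in Chow 1, 9.61 in Chow 2, 9.71 in Chow 3, 9.58 in Chow 4 and 9.91 in Chow 5. In the P group it read 9.71 in Powder 1, 9.61 in Powder 2, 9.69 in Powder 3, 9.61 in Powder 4 and 9.67 in Powder 5. Chow 1 and Chow 5 thus stood above all other rats, Chow 4 was lowest of all, Chow 2 lay level with the lowest P rats, and the groups overlapped. The span from the lowest to the highest rat was 0.40, which is 1.32-fold in signal. C rats averaged 9.76 ± 0.18 (SD, n = 5) and P rats 9.66 ± 0.05 (SD, n = 5), and the difference in spread was not tested.

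The difference of Npy, C group minus P group, was 0.10 on the log2 scale (SE 0.08, 95% interval -0.08 to 0.29). It did not pass rank products (estimated false discovery rate, FDR, 0.0999 as higher in the C group) or limma (adjusted p = 0.9995 over all probe sets), and the exact two-sided permutation test over all assignments of 5 against 5 rats gave p = 0.317. Without Chow 1 the difference was 0.045. Without Chow 2, rank products called Npy higher in the C group (FDR 0.0397).

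Gal read 9.53 in Chow 1, 9.64 in Chow 2, 9.81 in Chow 3, 9.64 in Chow 4 and 9.87 in Chow 5. In the P group it read 9.82 in Powder 1, 9.70 in Powder 2, 9.76 in Powder 3, 9.79 in Powder 4 and 9.60 in Powder 5. Both the lowest and the highest rat belonged to the C group, and the span between them was 0.34, or 1.26-fold. C rats averaged 9.70 ± 0.14 (SD, n = 5) and P rats 9.73 ± 0.09 (SD, n = 5). The difference was -0.04 (SE 0.07, 95% interval -0.20 to 0.13), with an FDR of 0.193 as lower in the C group, a limma adjusted p = 0.9995 and an exact permutation p = 0.643. It turned to 0.0063 without Chow 1, and without Chow 5, when it was -0.078, rank products called Gal lower in the C group (FDR 0.0441).

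Pomc, the melanocortin precursor, lay between 6.7487 and 6.7491 in the 10 rats. Its C and P means differed by -4.9e-05 (SE 8.9e-05), with an exact permutation p = 0.587. Galp lay between 6.7890 and 6.7902, and its means differed by 0.00043 (SE 0.00020, exact permutation p = 0.0952). Its sign turned under quantile normalization (-0.00038) and median centring (-0.0013).

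Of the 4 members, 0 were called higher and 0 lower by rank products, whereas of all probe sets 0.944% were called higher and 0.815% lower in the C group. Limma called 0% of all probe sets in either direction at an adjusted p below 0.05. Of the 31042, 1100, with 0 of the members among them, had an unadjusted limma p below 0.05. That is fewer than chance alone would give at this threshold. The intervals of Npy and Gal leave room for a difference of 0.29 or 0.20 on the log2 scale, so that the diets are not shown to act alike on these genes.

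**Figure D2:**
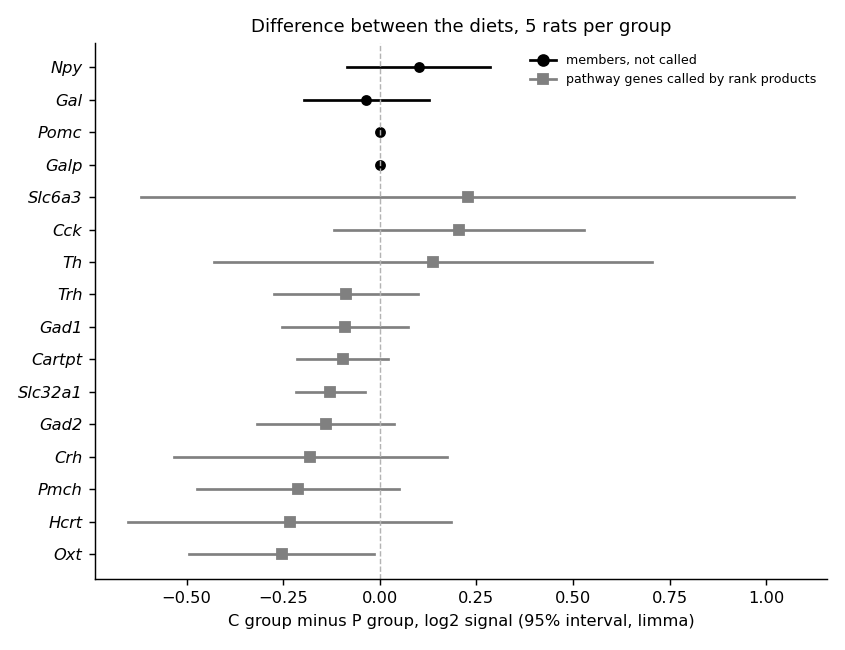
Difference between the diets, C group minus P group on the log2 scale, for the 4 members (circles) and for the pathway genes called by rank products (squares), with 95% intervals from limma (5 rats per group). The intervals of Npy, from -0.08 to 0.29, and Gal, from -0.20 to 0.13, span 0, and those of Pomc and Galp are narrower than their symbols. Of the 12 called genes, the intervals of Slc32a1 and Oxt lie below 0 and the other 10 span it.

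To determine how the varying members moved together, Npy and Gal were correlated over the 10 rats, each read on its own array. Over all 10 rats r was near 0 (Pearson r = -0.03, permutation p = 0.943, adjusted p = 0.966 over the 41 relations computed, Spearman rho = 0.27, permutation p = 0.450, adjusted p = 0.835). Chow 1 joined the highest Npy of all rats to the lowest Gal, whereas Chow 5 was second highest in Npy and highest in Gal. Without Chow 1, r was 0.68 (permutation p = 0.0264, n = 9). Without Chow 1 and Chow 5, which lay farthest from the median of Npy, r was 0.53 (permutation p = 0.169, n = 8). With the mean of each diet removed r was 0.04, and within the diets it was 0.04 among C rats and 0.11 among P rats.

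The other 40 relations set Npy or Gal against 13 varying pathway genes and the mean deviation of 7 marker lists. Of all 41, 9 had an unadjusted p below 0.05 by Pearson r and 2 an adjusted p below 0.05, both of them with Npy. The first was Drd1, a dopamine receptor gene of striatal neurons that some hypothalamic neurons also express. Drd1 read 7.79, 7.33, 7.50, 7.29 and 7.58 in Chow 1 to 5 and 7.49, 7.37, 7.49, 7.41 and 7.40 in Powder 1 to 5. It followed Npy across both groups (r = 0.94, permutation p = 2e-05, adjusted p = 0.00082, rho = 0.96, permutation p = 5e-05, adjusted p = 0.00205). Without Chow 1 and Chow 5 r was 0.92 (permutation p = 0.00145, n = 8), and within the diets it was 0.96 among C rats and 0.83 among P rats. Drd1 was the varying gene of 4 measured striatal markers, and Adora2a, Ppp1r1b and Rgs9, which also mark striatal neurons, had an SD of 0.1 or less. A second probe set of Drd1 was flat.

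The second was Pmch, the melanin-concentrating hormone precursor of the lateral hypothalamus, which ran opposite to Npy (r = -0.92, permutation p = 0.00141, adjusted p = 0.0289, rho = -0.67, permutation p = 0.0400, adjusted p = 0.547). It read 12.44 in Chow 1 and 12.79 in Chow 5, the rats with the highest Npy, and 12.98 to 13.15 in the remaining 8 rats. Within the diets r was -0.93 among C rats and -0.57 among P rats. Without Chow 1 and Chow 5 r was -0.51 (permutation p = 0.218, n = 8). Few rats and a narrower span of Npy are left then, so a relation beyond Chow 1 and Chow 5 is neither shown nor excluded. Hcrt, the orexin precursor of the same region, had r = -0.84 to Npy (permutation p = 0.0051, adjusted p = 0.0697, rho = -0.39, permutation p = 0.265, adjusted p = 0.832) and r = -0.11 without these rats. For Gal, the relation to Trh, the thyrotropin-releasing hormone precursor, had r = 0.68 (permutation p = 0.0307, adjusted p = 0.180, rho = 0.70, permutation p = 0.0310, adjusted p = 0.547) and r = 0.44 without Chow 1 and Chow 5, so it did not pass the adjustment.

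**Figure D3:**
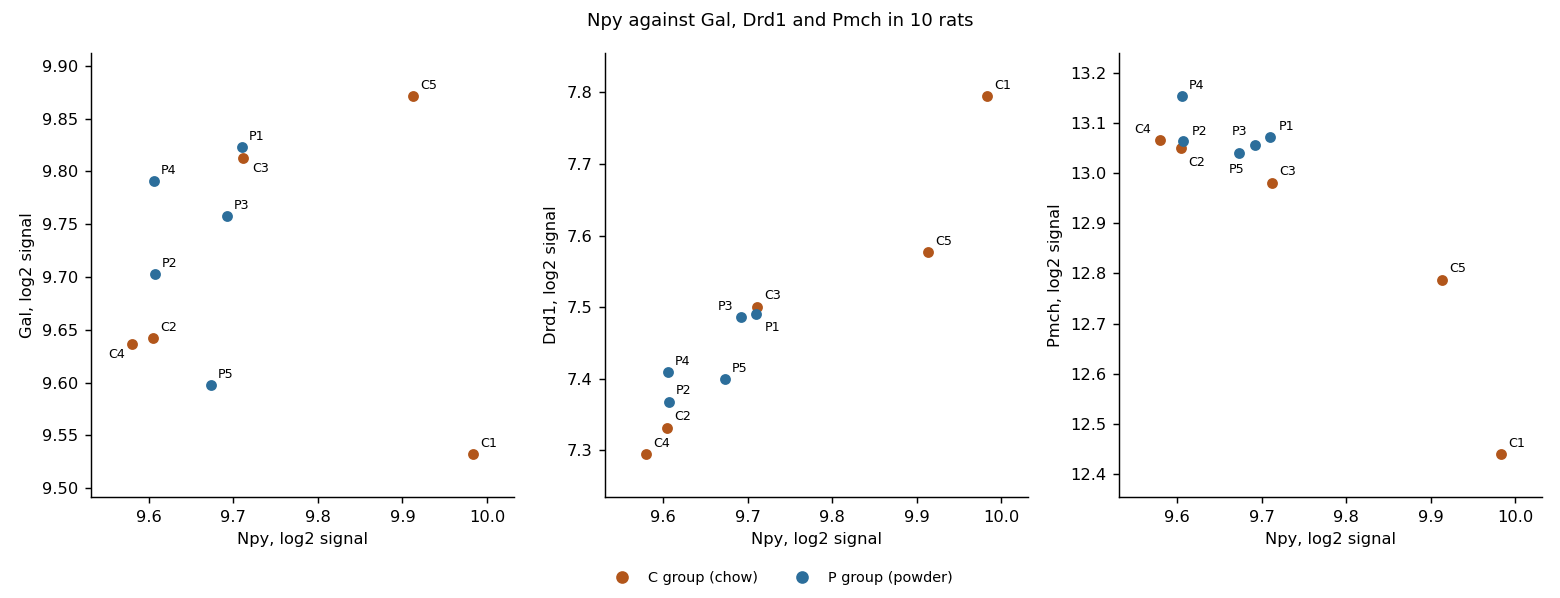
Log2 signal of Npy (horizontal axes) against Gal, Drd1 and Pmch (vertical axes) in the 10 rats, C1 to C5 of the C group and P1 to P5 of the P group. Drd1 rises with Npy over all rats (r = 0.94), Pmch falls in C1 and C5 (r = -0.92 with them, -0.51 without), and C1 stands alone in combining high Npy with low Gal.

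Among 1014 other varying probe sets that name a single gene, the 5 most like Npy were Itpr1, an endoplasmic calcium channel (r = 0.96), Rgs16, a regulator of G protein signaling (r = 0.96), Drd1 (r = 0.94), Enc1, an actin-binding protein of neurons (r = 0.93), and Hpcal4, a neuronal calcium sensor (r = 0.92). All 5 were highest in Chow 1, and without Chow 1 their r to Npy was 0.92, 0.92, 0.89, 0.87 and 0.85. The 3 most opposite were Ncs1, another calcium sensor (r = -0.92), Pmch (r = -0.92) and Prph, the neurofilament protein peripherin (r = -0.87), each lowest in Chow 1. Of these 8 genes, rank products called Rgs16 higher and Pmch and Prph lower in the C group.

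The genes most like Gal were Gabre, a GABA receptor subunit (r = 0.91), Cbln1, a synaptic organizer (r = 0.85), Ngb, the neuronal globin (r = 0.85), Calcr, the calcitonin receptor (r = 0.83), and Aurkb, a mitotic kinase (r = 0.80). Gabre, Cbln1 and Calcr were highest in Chow 5, as Gal was. Without Chow 1 the r to Gal rose to 0.93 and 0.93 for Gabre and Calcr. It fell to 0.77 for Cbln1, 0.79 for Ngb and 0.70 for Aurkb. Most opposite were the smooth muscle gene Tagln (r = -0.84), the collagen receptor gene Ddr2 (r = -0.84) and the basement membrane gene Nid1 (r = -0.82). Without Chow 1 their r to Gal was -0.75, -0.75 and -0.80. These genes were picked for their r out of all that vary, so the values describe the 10 arrays and no p is given.

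Markers of neighboring tissue and of tanycytes also stood apart in Chow 1. Of 5 measured cortical and hippocampal markers, Slc17a7 and Neurod6 varied, and Tbr1, Emx1 and Neurod2 had an SD of 0.1 or less. The mean deviation of the varying 2 reached 0.85 in Chow 1. It ran from -0.135 to 0.07 for the remaining C rats and from -0.42 to -0.03 for P rats. Its r was 0.63 to Npy (permutation p = 0.0726, adjusted p = 0.271) and -0.07 without Chow 1. To Gal its r was -0.64 (permutation p = 0.0253, adjusted p = 0.180) and -0.35 without Chow 1. The 9 of 9 varying leptomeningeal genes averaged 0.86 in Chow 1 and 0.68 in Chow 4, against -0.46 to -0.19 for the remaining C rats and -0.73 to 0.44 for P rats, with r = 0.23 to Npy (permutation p = 0.530, adjusted p = 0.821) and r = -0.64 to Gal (permutation p = 0.0509, adjusted p = 0.209). Of 8 tanycyte markers 3 varied, Crym, Col25a1 and Frzb. Rax, Dio2, Gpr50, Lhx2 and Adm had an SD of 0.1 or less. The varying 3 averaged 0.23 in Chow 1 and 0.13 in Chow 5, against -0.19 to 0.01 for the remaining C rats and -0.07 to 0.03 for P rats. The mean of these 3 genes had r = 0.82 to Npy (permutation p = 0.00707, adjusted p = 0.0725) and 0.11 without Chow 1 and Chow 5. What part these tissues and cells have in the spread of Npy and Gal was not tested.

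The anterior pituitary, which also makes proopiomelanocortin, was represented by 9 markers. Of these 2 varied, Tshb and Cga, whose mean deviation was 2.11 in Chow 4 and 0.95 in Chow 5. It was -0.39 to -0.34 for the remaining C rats and -0.47 to -0.31 for P rats. Gh1, Prl, Lhb, Fshb, Pou1f1, Pitx1 and Tbx19 had an SD of 0.1 or less, as Pomc did. The mean therefore describes Tshb and Cga alone, and the tissue it came from was not tested. Their mean had r = -0.03 to Npy and r = 0.00089 to Gal. Markers of hypothalamic neurons varied in 6 of 9 cases (Hcrt, Pmch, Avp, Oxt, Trh and Crh). Sim1, Otp and Nkx2-1, transcription factors of these neurons, had an SD of 0.1 or less, and Nkx2-1 was flat. The mean deviation of the varying 6 was -0.28 in Chow 1. It was -0.09 to 0.0023 for the remaining C rats and -0.04 to 0.24 for P rats. Its r to Npy was -0.54 (permutation p = 0.108, adjusted p = 0.341) and -0.14 without Chow 1. To Gal its r was 0.24 and, without Chow 1, -0.23. Of 4 thalamic markers 1, Tnnt1, varied. It deviated by 0.72, 0.65 and 0.44 in Powder 1, 2 and 5, by -0.175 and -0.58 in Powder 3 and 4 and by -0.42 to -0.08 in C rats, with r = -0.05 to Npy and 0.08 to Gal.

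Downstream of the members, the receptors gave no varying signal. The receptors of neuropeptide Y (Npy1r, Npy2r and Npy5r), the melanocortin receptor gene Mc4r, the galanin receptors (Galr1, Galr2 and Galr3) and the opioid receptor gene Oprm1, whose product binds beta-endorphin from Pomc, were flat in 8 of 8 measured genes, and 0 were called. Of 6 receptors through which arcuate neurons read hormones and serotonin 0 were called and 1 varied, the leptin receptor gene Lepr. It read 7.39 in Chow 1, 7.10 in Chow 4 and from 6.59 to 6.67 for the remaining C rats, against 6.64 to 6.91 for P rats. This came from 1 of 7 Lepr probe sets, with the other 6 flat. The varying one had r = 0.34 to Npy and -0.65 to Gal (permutation p = 0.0354, adjusted p = 0.180, and r = -0.26 without Chow 1 and Chow 5). The leptomeningeal mean was also highest in Chow 1 and Chow 4 (0.86 and 0.68) and had r = -0.64 to Gal. Its relation to Lepr was not tested.

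Genes that process the precursors, among them the convertase gene Pcsk2, the carboxypeptidase gene Cpe and the amidating enzyme gene Pam, were called in 0 of 6 measured cases and varied in 0. Transcription factors and signal transducers of arcuate neurons were called in 0 of 7, and 1, Tbx3, varied, with a difference of 0.06 (FDR 0.0905 as higher in the C group).

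Other peptides and transmitters of arcuate neurons were called higher in 2 of 11 genes and lower in 4, and feeding peptides made outside this nucleus were called higher in 1 of 6 and lower in 5. In all 44 measured pathway genes, 3 were called higher and 9 lower, against 0.944% and 0.815% of all probe sets. These shares are not a like baseline, because the probe set with the largest SD stood for each listed gene. Flat probe sets made up 26 of the 44, against 92.6% of all, so the counts do not show enrichment. The median difference was -2.3e-05, against -2.7e-06 over all probe sets tested. The study itself singled out Cartpt, Cck, Crh, Hcrt, Oxt, Pmch and Trh on these rats, so what they add to these counts is no independent support for a direction. Cartpt, whose peptide is made in Pomc neurons and restrains feeding, was lower in the C group at -0.10 (SE 0.05, FDR 0.0121), and 4 of 5 C rats lay below every P rat. The GABA genes, which neurons of the Npy and Agrp type also use, were lower at -0.13 for the vesicular transporter gene Slc32a1 (SE 0.04, FDR 0.00255), -0.14 for Gad2 (SE 0.08, FDR 0.00628) and -0.09 for Gad1 (SE 0.07, FDR 0.0382), the latter 2 encoding the synthesizing enzymes. Npy had r = 0.32 to Gad1 and -0.34 to Gad2 over the 10 rats. Cartpt lost its call without Powder 2 and Gad1 when any one of 5 rats was left out.

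Called higher were the dopamine genes Slc6a3, the transporter, at 0.23 (SE 0.37, FDR 0.00967) and Th, the synthesizing enzyme, at 0.14 (SE 0.25, FDR 0.0403). Without Chow 3 both lost their calls and their differences turned to -0.03 and -0.04. Slc6a3 also lost its call without Chow 4 or Powder 2, and Th without Chow 1, Chow 4, Powder 1 or Powder 2. A second varying probe set of Slc6a3 was not called, at 0.10. The satiety peptide gene Cck was called higher at 0.20 (SE 0.14, FDR 0.0110). It read 9.45 in Chow 1, the rat with the highest cortical and hippocampal markers, against 8.61 to 9.07 in the remaining rats. Without Chow 1 its difference was 0.08, and the call was lost without Chow 1 or Chow 3.

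Among the peptides called lower, Oxt was at -0.25 (SE 0.11), Hcrt at -0.23 (SE 0.18), Pmch at -0.21 (SE 0.11), Crh at -0.18 (SE 0.16) and Trh at -0.09 (SE 0.08), against 0.10 for Npy and -0.04 for Gal. Hcrt, 9.94 in Chow 1 and 10.57 or more elsewhere, lost its call without that rat, when its difference was -0.06, and that of Pmch was then -0.11. Crh was highest in Powder 1, 5 and 2 (7.84, 7.78 and 7.71), the rats with the highest Tnnt1, and lost its call without any one of them. Oxt was also highest in these rats (10.74, 10.71 and 10.52). Trh lost its call when any one of 7 rats was left out. The part of neighboring tissue in these calls was not tested. Of the 12 called genes, 4 (Slc32a1, Gad2, Oxt and Pmch) were called whichever rat was left out. Limma called 0 of the 44 (3 had an unadjusted p below 0.05) and rank sums called 0. Without Chow 1 and Chow 4, rank products called 6, all of them lower, of which Cartpt, Gad2, Oxt, Pmch and Slc32a1 were called with all rats too and Lepr was not.

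**Figure D4:**
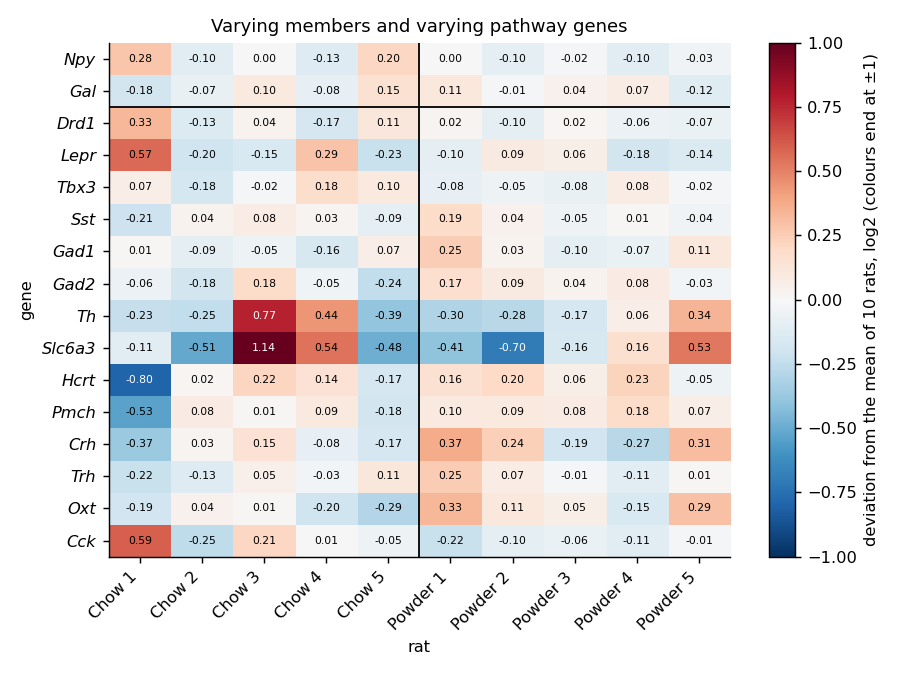
Deviation of each rat from the mean of the 10 rats, on the log2 scale, for Npy and Gal (top), Drd1 and the 13 varying pathway genes, with a line between the C and P groups. Chow 1 is highest in Npy, Drd1, Lepr and Cck and lowest in Gal, Hcrt, Pmch, Sst, Crh and Trh, while Chow 3 is highest in Th and Slc6a3.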

How the data were processed

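Hypothalamic RNA of 10 rats was hybridized to 1 Affymetrix Rat Genome 230 2.0 array each. The deposited values are log2 signals from 5.23 to 13.96, which the authors summarized from the scans by FARMS, a factor analysis of probes, with R 2.7.2. They were used without further scaling. Columns were joined to rats by the sample identifier that names them. The table held 31099 probe sets, and 57 controls of hybridization among them were not tested. Gene names came from the array annotation, in which 20826 probe sets name 1 gene, 436 several and 9780 none. Arrays carry no read depth, and the number of rats limits the precision. The correlation between arrays was 0.9970 to 0.9991.

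Rank products over the 25 C-P rat pairs covered all probe sets with 100 permutations, calling at an FDR below 0.05 (Python 3.11.15, numpy 2.4.6, pandas 2.3.3). Limma 3.58.1 in R 4.3.3 gave differences, standard errors and Benjamini-Hochberg adjusted p over all probe sets. Both were also run on simulated data, and the outcome is not given here. Permutation p-values of correlations were two-sided, from 100000 resamples (20000 with 8 rats), and were adjusted over the 41 relations. Promoter windows came from RefSeq (GRCr8), where 5 of 5 members matched. Figures were drawn with matplotlib 3.10.9.

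Members and gene lists (6 of pathways with 49 entries, 7 of markers with 50) were chosen with earlier results of these data known. The probe set with the largest SD stood for a listed gene. Genes named were the members, called pathway genes and, for each varying member, the 5 probe sets with the highest and 3 with the lowest r. Deviations of same-numbered C and P rats had correlations from -0.33 to 0.28. These cannot show whether the numbers pair samples, and the main tests used no pairing. Alternatives were rank sums, limma, a replicate block, other variance priors, a stricter FDR of 0.01, quantile normalization, median centring, filters on mean level or SD, Spearman's rho, removal of diet means and leaving out rats.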

Additional observations from a re-analysis of the deposited data

Results flagged for a closer look

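In 38 groups of 5 rats, formed by the members and the called or varying pathway genes in each diet, the rat at the end of the range was tested against its nearest neighbor with Dixon's critical value of 0.71. Chance flags about 5% of such groups, or 1.9 of 38, and 2 stood out. Pomc in Powder 4 was lowest of the P group at 6.7487, a distance of 78% of the group's range, in a probe set that is flat. Pmch in Powder 4 was highest of the P group at 13.1540 (13.07 in the next rat), at 71% of the range.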

How the results depend on the processing

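The call of 0 of 4 members by rank products was the same under rank sums, an FDR of 0.01, quantile normalization, median centring, limma, and without Chow 1 and Chow 4. Leaving out 1 rat gave 0 to 1 calls, the 1 being Npy without Chow 2 and Gal without Chow 5. The filters on mean level or SD removed Pomc and Galp, and 0 of the remaining 2 were called. The difference of Npy kept its sign in 16 of 16 alternatives and lay between 0.045 (without Chow 1) and 0.15 with 1 rat left out. That of Gal lay between -0.078 (without Chow 5) and 0.0063 (without Chow 1), and turned to 0.041 without Chow 1 and Chow 4. That of Galp turned to -0.00038 under quantile normalization and -0.0013 under median centring. The 12 called pathway genes became 0 under rank sums, limma and limma with the replicate block, 0 with an SD above 0.1 (13 of 44 entered, without Cartpt and Slc32a1), 9 with a mean above the median (27 entered), 7 at an FDR of 0.01, 6 without Chow 1 and Chow 4, and 6 to 13 with 1 rat left out (6 without Powder 2). With the replicate number as a block, limma called 0 of 4 members and 0 of 44 pathway genes, so the block changed no call of limma. The correlation of Npy with Gal was 0.27 as Spearman's rho, 0.044 with diet means removed, 0.0018 after quantile normalization, 0.53 without the 2 rats farthest from the median, 0.62 without Chow 1 and Chow 4, and -0.38 (without Chow 5) to 0.68 (without Chow 1) with 1 rat left out. That of Npy with Drd1 kept its sign and an unadjusted p below 0.05 in 16 of 16 alternatives, from 0.89 to 0.98 with 1 rat left out. Npy with Pmch was -0.51 without the 2 farthest rats, and -0.94 to -0.89 with 1 rat left out. Npy with Hcrt was -0.39 as Spearman's rho, -0.11 without the 2 farthest rats, -0.65 without Chow 1 and Chow 4, and -0.88 to -0.65 (without Chow 1) with 1 rat left out. Gal with Trh was 0.44 without the 2 farthest rats, 0.49 without Chow 1 and Chow 4, and 0.51 (without Chow 1) to 0.79 with 1 rat left out. The cause was not tested in any of these. With 5 rats per group no member could be separated from 0 at the spread measured.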
